A study of Homo sapiens with 12 samples.

Results

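Annexins are proteins that bind phospholipid membranes when calcium rises, and 10 of their genes (ANXA1, ANXA2, ANXA3, ANXA4, ANXA5, ANXA6, ANXA7, ANXA8, ANXA10 and ANXA11) were followed here in 624Mel cells, an established human melanoma line. The genes were taken by name from a table of 40173 gene IDs, and all 10 were found. The family was picked with earlier results of these data known. At the membrane, annexins take part in vesicle traffic, the repair of tears and the arrangement of the cell cortex. ANXA1 was first known as a glucocorticoid-induced protein that restrains phospholipase A2 and signals through formyl peptide receptors, ANXA2 pairs with the small protein S100A10 and holds plasminogen at the cell surface, and ANXA5 binds phosphatidylserine, for which it serves as a probe of dying cells. In melanoma, annexins have been studied mainly for cell movement and for proteolysis at the cell surface.

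The study asked how loss of MITF, the transcription factor that drives melanocyte identity, alters the response of melanoma cells to IFNγ. Bulk RNA was sequenced from 4 conditions with 3 libraries each, all of the one line 624Mel and all reverse transfected with an siRNA. The siCTRL cells carried a control siRNA and no IFNγ, the siCTRL + IFNγ cells the control siRNA and 5 ng/mL IFNγ, the siMITF cells an siRNA against MITF and no IFNγ, and the siMITF + IFNγ cells both. IFNγ was added 24 h after transfection and the cells were taken 24 h later, at 48 h, so that the knockdown was transient and each condition was seen at 1 time.

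Values are TPM, a length-scaled share of the transcripts of a library, and levels can therefore be compared between genes. The summed TPM ran from 975336 to 982632 per library, and the number of reads behind them is unknown. No pair of libraries held identical values. Mitochondrial genes took from 7.42% to 16.9% of the TPM, and replicate 2 had the lowest share in each condition. The labels do not say whether the 3 libraries of a condition came from separate cultures. The methods describe the experiments of the study in general as independent biological replicates, and if that does not hold for these libraries the p-values measure technical spread. MITF itself stood at 187, 229 and 217 TPM in siCTRL, 158, 246 and 243 TPM in siCTRL + IFNγ, 36.0, 49.7 and 41.7 TPM in siMITF, and 37.5, 55.1 and 51.3 TPM in siMITF + IFNγ, which placed all knockdown libraries below all others. The label of a melanoma line was met by the melanocytic markers, of which 6 of 6 (MLANA, PMEL, TYR, TYRP1, DCT and SOX10) reached 2 TPM, with summed levels of 7745 to 9151 TPM in siCTRL and 2272 to 2557 TPM in siMITF. Of 6 leukocyte markers CD3E was listed at 0 in every library and PTPRC did not pass 0.732 TPM, and 4 endothelial markers together did not pass 0.808 TPM. The 2 leukocyte markers that reached 2 TPM moved in opposite directions with siMITF: CD68, a lysosomal protein of macrophages, stood at 60.9 to 86.5 TPM in siCTRL and 26.3 to 28.4 TPM in siMITF, and LYZ, lysozyme, at 2.31 to 2.62 TPM and 4.37 to 5.22 TPM. The 5 fibroblast markers summed to 6.20 to 7.83 TPM in siCTRL, 4.004 to 4.32 TPM in siCTRL + IFNγ, 10.2 to 12.5 TPM in siMITF and 6.35 to 7.23 TPM in siMITF + IFNγ, and the only keratinocyte marker to reach 2 TPM was KRT10. The part of these shifts in the annexin results was not tested.

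Among the 10 annexins, 7 were present at more than 12 TPM in every library and 3 were close to absent. ANXA5 and ANXA2 led by far: in siCTRL their means were 1098 ± 38.3 TPM and 938 ± 85.6 TPM (SD, n = 3). Below them followed ANXA7 at 93.4 ± 2.93 TPM, ANXA6 at 76.9 ± 5.46 TPM, ANXA11 at 45.5 ± 1.36 TPM, ANXA4 at 28.6 ± 0.624 TPM and ANXA1 at 16.5 ± 5.56 TPM. No library of one of these genes overlapped with the libraries of its neighbour in that order. After MITF knockdown ANXA2 led at 1184 ± 20.5 TPM, followed by ANXA5 at 632 ± 25.2 TPM and ANXA1 at 245 ± 11.4 TPM, again without overlap between neighbours. ANXA1 thus went from rank 7 to rank 3 of the family, while ANXA7, ANXA6, ANXA11 and ANXA4 kept their order among themselves. In siCTRL + IFNγ the libraries of ANXA5 and ANXA2 overlapped, and in siMITF + IFNγ those of ANXA6 and ANXA11 did. The plot of annexin TPM by library shows these levels, each gene on its own scale.

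**Figure D1:**
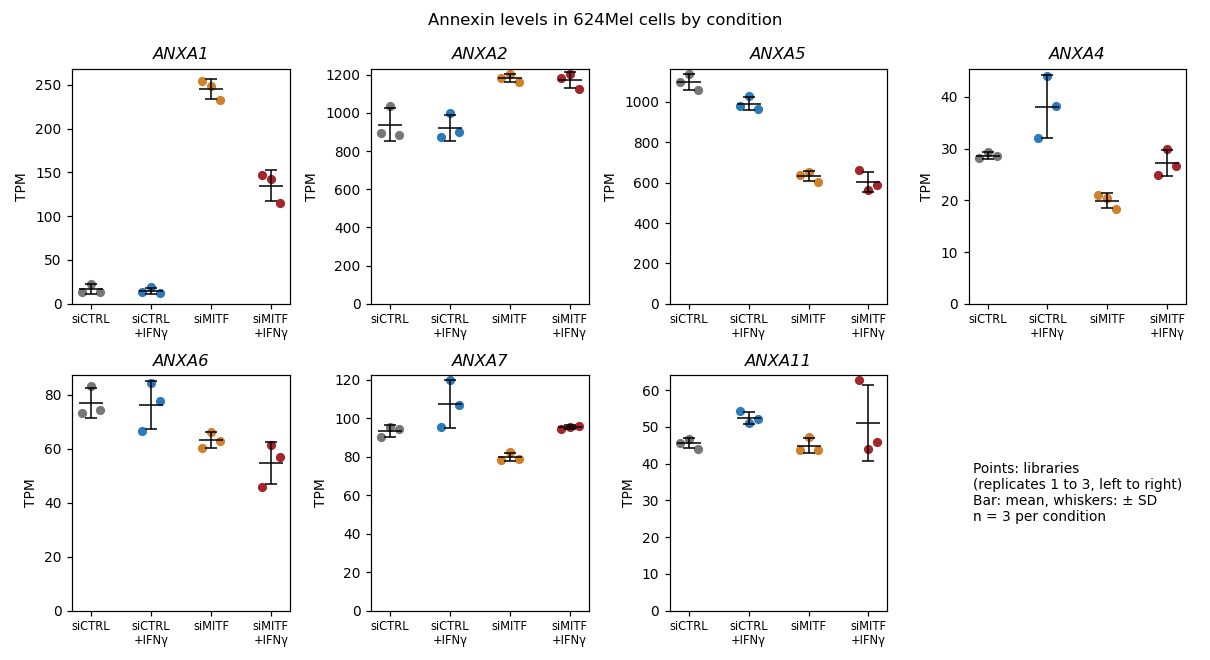
TPM of the 7 annexins above 2 TPM, 1 panel per gene, each on a linear axis from 0, with points for the 12 libraries, bars for the mean of the 3 libraries of a condition and whiskers for ± SD. ANXA1 lies between 12.4 and 22.9 TPM in the 6 control siRNA libraries and between 115 and 254 TPM in the 6 siMITF libraries, the largest ratio between the siRNAs among the 7 panels.

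The 3 remaining members were barely detected. ANXA3 did not pass 0.235 TPM in any library, ANXA8 did not pass 0.0673 TPM, and ANXA10, a stomach-enriched annexin, was listed at 0 in 8 of 12 libraries with a highest value of 0.110 TPM. These genes were below the minimum of 2 TPM in a condition and were not tested. ANXA8 has a near-identical copy, ANXA8L1, which was listed at 0 in every library, and the ANXA2 copies ANXA2P1, ANXA2P2 and ANXA2P3 did not pass 0.262 TPM, so that little of the ANXA2 level could have been split among them. Copies of this kind can share reads, and their own values are uncertain.

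The main test was run on log2(TPM + 1) over the 12773 gene IDs whose mean reached 2 TPM in any condition, with limma and one coefficient per condition. Fold changes on this scale understate the change of low genes. A gene passed the test with a Benjamini-Hochberg adjusted p under 0.05 over all of them, and 7 members entered it. With 3 libraries against 3 an exact permutation test of a single gene cannot go below p = 0.1, and the adjusted p-values below rest on limma's pooled estimate of spread. In bulk RNA, fewer cells of a kind and less RNA per cell cannot be told apart.

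Treatment with siMITF resulted in higher ANXA1 and ANXA2 and lower ANXA5, ANXA4 and ANXA7. These were 5 of the 7 tested members, 2 higher and 3 lower, beside 34.8% of all tested gene IDs that passed in this comparison, 21.0% higher and 13.8% lower. Only ANXA1 also moved by at least 1 on the log2 scale, which 6.17% of gene IDs did. With the replicate number as a block, 6 members passed, ANXA6 being added. The median change of the 7 members was -0.22 on the log2 scale beside 0.06 over all tested gene IDs.

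ANXA1 (ENSG00000135046, GRCh38, chr9:73151865-73170393, plus strand, protein-coding) is described first. Its TPM were 12.9, 22.9 and 13.6 in siCTRL and 254, 248 and 232 in siMITF, so that the lowest knockdown library stood far above the highest control. The mean ratio was 14.9. On the log2 scale ANXA1 rose by 3.86 (SE 0.20, 95% interval 3.43 to 4.29, adjusted p = 2.1e-08 with limma). This was rank 2 from the highest of the 12773 gene IDs on log2(TPM + 1), which understates the change of low genes. By the ratio of means, some lower genes rose more than ANXA1. The siCTRL mean of LRRC55 was 0.0502 TPM and its siMITF mean 10.9 TPM. For RAB3B these means were 0.347 and 9.74 TPM. The change of ANXA1 ran from 3.72 to 4.11 over 23 alternative settings, passing the test in each, but its rank was not followed over them. Within siCTRL the high library was replicate 2, which also had the lowest mitochondrial share of its condition (7.42%), and a role of that share in the value was not tested.

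The sequence before the ANXA1 start is shown because ANXA1 moved most with the knockdown of a factor that binds E-box letters. RefSeq (GRCh38.p14) gives 1 start for ANXA1, at position 73151865 of chromosome 9, and 250 bases upstream of it on the plus strand, chr9:73151615-73151864, read as follows.

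ANXA1: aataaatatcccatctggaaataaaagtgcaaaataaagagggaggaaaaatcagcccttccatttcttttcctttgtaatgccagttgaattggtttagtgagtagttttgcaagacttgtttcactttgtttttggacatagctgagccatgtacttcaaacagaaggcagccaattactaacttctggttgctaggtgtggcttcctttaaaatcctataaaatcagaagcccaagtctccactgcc

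This run holds neither CACGTG nor CATGTG, the E-box letters searched on both strands. The window from 250 bases before to 50 after the start was also searched for the ISRE letters bound by IRF factors and for TGANTCA (AP-1 letters), and the ANXA1 window held none of these strings. Among 35116 RefSeq promoter windows of the same length, 7.26% held CACGTG, 11.1% CATGTG and 7.71% TGANTCA. A window of ANXA8 was not found in the table, and the other 9 members had 13 windows.

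ANXA2 (ENSG00000182718, chr15:60347134-60402883, minus strand) stood at 893, 1037 and 885 TPM in siCTRL and 1183, 1205 and 1164 TPM in siMITF, without overlap. It rose by 0.34 on the log2 scale (SE 0.07, adjusted p = 0.00337 with limma), a mean ratio of 1.26. In TPM the mean gains were close, at 246 TPM for ANXA2 and 228 TPM for ANXA1. The order of these gains was not tested, and ANXA2 had an SD of 85.6 TPM in siCTRL.

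ANXA5 (ENSG00000164111, chr4:121667946-121696995, minus strand) moved the other way. It stood at 1098, 1136 and 1059 TPM in siCTRL and 638, 654 and 605 TPM in siMITF. No library overlapped, and the log2 change was -0.80 (SE 0.07, adjusted p = 1.7e-06 with limma), a loss of 466 TPM on average. ANXA5 had held 47.8% of the summed annexin TPM in siCTRL and held 27.9% in siMITF, while ANXA2 went from 40.8% to 52.2% and ANXA1 from 0.709% to 10.8%.

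ANXA4 (ENSG00000196975, chr2:69644425-69827112, plus strand), an annexin of secretory epithelia, stood at 28.1, 29.3 and 28.5 TPM in siCTRL and 21.0, 20.5 and 18.3 TPM in siMITF. All knockdown libraries were lower, and the log2 change was -0.51 (SE 0.11, adjusted p = 0.00361 with limma). ANXA7 (ENSG00000138279, chr10:73375101-73414076, minus strand), once named synexin for its part in granule fusion, stood at 90.1, 95.6 and 94.5 TPM in siCTRL and 78.5, 82.4 and 79.0 TPM in siMITF. These libraries did not overlap either, but the change of -0.22 (SE 0.08, adjusted p = 0.0450 with limma) missed the threshold in 11 of 23 alternative settings, among them the omission of any single siCTRL or siMITF library.

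ANXA6 (ENSG00000197043, chr5:151100706-151157815, minus strand), the annexin with a duplicated core, stood at 73.2, 83.2 and 74.3 TPM in siCTRL and 60.3, 66.3 and 63.0 TPM in siMITF. The libraries did not overlap, yet the log2 change of -0.28 (SE 0.11) had an adjusted p of 0.0767 with limma, and of 0.00441 with the replicate block. ANXA6 passed in 6 of 23 alternative settings. Among them were the block and the omission of siCTRL + IFNγ replicate 1 (adjusted p = 0.0472) or siMITF + IFNγ replicate 1 (adjusted p = 0.0305, limma). ANXA11 (ENSG00000122359, chr10:80150889-80205572, minus strand), which tethers RNA granules to lysosomes, stood at 45.6, 46.8 and 44.1 TPM in siCTRL and 43.6, 47.2 and 43.8 TPM in siMITF. Here the groups overlapped, and the change was -0.02 on the log2 scale with a 95% interval of -0.26 to 0.22. In all, 6 of the 7 tested members had groups that did not overlap, beside 55.0% of the tested gene IDs.

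E-box letters were present in windows of 2 members, ANXA4 and ANXA6, which are shown for this reason together with the window of ANXA5, the member with the largest loss in TPM. Capitals mark CACGTG or CATGTG, each run is printed 5′ to 3′ on the strand of its gene, and bases in exons of the gene are left out. The ANXA4 run, chr2:69741884-69741973 on the plus strand, belongs to the second start RefSeq lists, at position 69742134. The ANXA6 runs, on the minus strand, belong to starts at positions 151141684 (chr5:151141685-151141934) and 151157779 (chr5:151157816-151158029). The ANXA5 run is chr4:121696996-121697230, on the minus strand, with a start at position 121696980.

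ANXA4: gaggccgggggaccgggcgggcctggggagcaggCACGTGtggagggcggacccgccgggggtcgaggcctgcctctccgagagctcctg
ANXA6, start 151141684: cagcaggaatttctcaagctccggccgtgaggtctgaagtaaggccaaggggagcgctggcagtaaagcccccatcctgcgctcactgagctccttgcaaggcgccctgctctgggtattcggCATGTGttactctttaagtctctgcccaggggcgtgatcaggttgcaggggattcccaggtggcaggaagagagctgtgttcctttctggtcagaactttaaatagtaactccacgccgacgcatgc
ANXA6, start 151157779: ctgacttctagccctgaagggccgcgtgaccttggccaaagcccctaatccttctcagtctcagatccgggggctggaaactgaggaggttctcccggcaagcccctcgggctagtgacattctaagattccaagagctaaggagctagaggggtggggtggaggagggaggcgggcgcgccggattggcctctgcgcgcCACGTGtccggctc
ANXA5: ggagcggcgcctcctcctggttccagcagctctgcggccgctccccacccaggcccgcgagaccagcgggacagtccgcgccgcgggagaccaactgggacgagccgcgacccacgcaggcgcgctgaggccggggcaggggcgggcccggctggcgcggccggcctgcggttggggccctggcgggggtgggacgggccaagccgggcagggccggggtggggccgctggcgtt

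In these windows the first base of the match lay 216 bases before the start in ANXA4, and 127 and 50 bases before it in ANXA6. The ANXA5 window held none of the letter strings searched, ANXA2 held TGAGTCA from 127 bases before its start, and no window of a member held the ISRE letters, which 3.57% of all windows held. A match of letters is a description of the sequence and says nothing of binding in these cells.

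In cells with the control siRNA, 1 of the 7 tested annexins, ANXA4, passed the test for IFNγ, beside 12.9% of all tested gene IDs (6.80% higher). Its TPM were 28.1, 29.3 and 28.5 in siCTRL and 32.0, 44.1 and 38.3 in siCTRL + IFNγ, without overlap, and it rose by 0.39 on the log2 scale (SE 0.11, adjusted p = 0.0391 with limma). That call was lost in 10 of 23 alternative settings and without any one of the siCTRL libraries (adjusted p up to 0.106, limma). With the replicate block 2 members passed, ANXA4 and ANXA7, the latter at 95.5, 120.2 and 107 TPM with IFNγ against 90.1, 95.6 and 94.5 TPM without and an adjusted p of 0.135, or 0.0391 with the block (limma). ANXA7 passed in 4 of 23 alternative settings, among them the block and the omission of siCTRL + IFNγ replicate 1 (adjusted p = 0.0268, limma).

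ANXA1 showed no such rise. It stood at 13.0, 18.9 and 12.4 TPM in siCTRL + IFNγ, within the range of the siCTRL libraries apart from the lowest, and its log2 change was -0.13 (95% interval -0.56 to 0.30, adjusted p = 0.745 with limma). Without siCTRL replicate 2 the value was 0.12, so that its sign rested on that library. ANXA5 at 980.2, 1028 and 966 TPM lay below all siCTRL libraries, with a log2 change of -0.15 and an adjusted p of 0.190 (limma). ANXA11 at 54.2, 51.1 and 52.0 TPM lay above all of them, with a log2 change of 0.20 and an adjusted p of 0.286 (limma). ANXA2, at 871, 999.5 and 897 TPM, and ANXA6, at 66.5, 84.2 and 77.8 TPM, overlapped with their controls, with log2 changes of -0.02 each. In this comparison 3 of the 7 tested members did not overlap, beside 29.7% of the tested gene IDs.

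In MITF-depleted cells, IFNγ treatment resulted in lower ANXA1 and in higher ANXA4 and ANXA7. These were 3 of the 7 tested members, beside 20.2% of all tested gene IDs (7.99% higher and 12.2% lower). Groups did not overlap for 3 of the 7, beside 40.5%. ANXA1 stood at 147, 142 and 115 TPM in siMITF + IFNγ against 254, 248 and 232 TPM in siMITF. No treated library came near an untreated one, and the mean of 135 ± 17.6 TPM was 0.550 of the 245 ± 11.4 TPM without IFNγ. ANXA1 fell by 0.87 on the log2 scale (SE 0.20, 95% interval -1.29 to -0.44, adjusted p = 0.00832 with limma), the change ranked 69 from the lowest of all tested gene IDs, and it passed the test in each of 23 alternative settings.

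ANXA4 rose by 0.43 in the same cells (SE 0.11, adjusted p = 0.0173 with limma), from 21.0, 20.5 and 18.3 TPM to 24.9, 29.9 and 26.6 TPM. The groups did not overlap, but the call was lost without siMITF replicate 3 (adjusted p = 0.0751) or without siMITF + IFNγ replicate 2 (adjusted p = 0.0655, limma). ANXA7 rose by 0.25 (SE 0.08, adjusted p = 0.0396 with limma), from 78.5, 82.4 and 79.0 TPM to 94.5, 95.6 and 96.3 TPM, again without overlap, and this call was lost in 11 of 23 alternative settings, including the omission of any one of these 6 libraries. Without siMITF replicate 3 or siMITF + IFNγ replicate 2, ANXA1 was the 1 member that still passed.

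ANXA6, at 45.9, 61.4 and 56.8 TPM with IFNγ, had a log2 change of -0.21 with an adjusted p of 0.205, or 0.0255 with the replicate block (limma). It passed in 2 of 23 alternative settings, the block among them. ANXA11 stood at 62.9, 44.1 and 45.9 TPM, where replicate 1 alone stood apart from the untreated libraries, with a log2 change of 0.16 (adjusted p = 0.332, limma). ANXA2 at 1185, 1206 and 1124 TPM and ANXA5 at 661, 564 and 588 TPM overlapped with the untreated siMITF libraries, and their log2 changes were -0.02 and -0.07.

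The difference between the IFNγ changes of ANXA1 in the presence and absence of MITF knockdown was tested as an interaction. It was -0.74 on the log2 scale (SE 0.28, 95% interval -1.35 to -0.13), with an adjusted p of 0.463 (limma), and adjusted p-values over the alternative settings ran from 0.0741 with the replicate block to 0.837. The fall of ANXA1 in siMITF cells is therefore not shown to differ from its change in siCTRL cells. None of the 7 members passed this test with limma, beside 0.947% of the tested gene IDs, and 1 of them, ANXA1, had an unadjusted p under 0.05. For the other 6 members the interaction ran from -0.20 for ANXA6 to 0.08 for ANXA5, and the widest of their intervals, that of ANXA6, was -0.54 to 0.15.

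**Figure D2:**
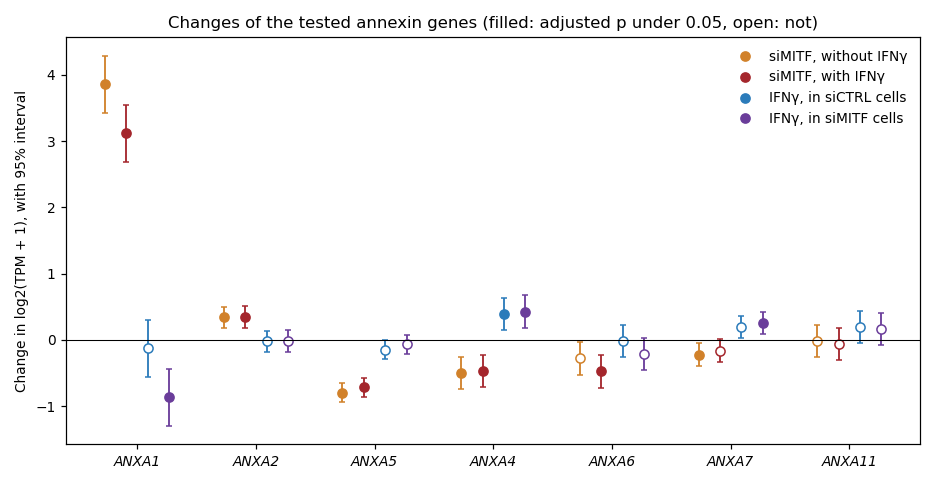
Change in log2(TPM + 1) of the 7 tested annexins with siMITF (without and with IFNγ) and with IFNγ (in siCTRL and siMITF cells), with points for the limma estimate and bars for its 95% interval, filled where the adjusted p was under 0.05. ANXA1 stands at 3.86 for siMITF without IFNγ, 3.12 for siMITF with IFNγ and -0.87 for IFNγ in siMITF cells, while the other members lie between -0.80 and 0.43.

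With IFNγ present in both conditions, siMITF again resulted in higher ANXA1 and ANXA2 and lower ANXA5, ANXA6 and ANXA4. That is 5 of the 7 tested members, 2 higher and 3 lower, beside 33.1% of all tested gene IDs (18.4% higher and 14.7% lower). Groups did not overlap for 5 of the 7, beside 38.3%. ANXA1 stood at 147, 142 and 115 TPM against 13.0, 18.9 and 12.4 TPM, a mean ratio of 9.12. Its log2 rise was 3.12 (SE 0.20, adjusted p = 1.54e-07 with limma), rank 5 from the top on log2(TPM + 1). It was the only member to move by at least 1 on the log2 scale, as 5.74% of gene IDs did. ANXA2 rose by 0.35 (adjusted p = 0.00311), ANXA5 fell by 0.72 (adjusted p = 4.84e-06), ANXA6 fell by 0.47 (adjusted p = 0.00617) and ANXA4 fell by 0.47 (adjusted p = 0.00628, all with limma). ANXA7 had a log2 change of -0.16 with an adjusted p of 0.134, or 0.0496 with the replicate block and 0.0190 without siCTRL + IFNγ replicate 1 (limma). It passed in 4 of 23 alternative settings, these 2 among them. ANXA11 had a log2 change of -0.06 with an adjusted p of 0.734 (limma), but of -0.22 with an adjusted p of 0.0357 without siMITF + IFNγ replicate 1, the library in which it stood at 62.9 TPM.

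Against untreated siCTRL cells, the combination of siMITF and IFNγ left 4 of the 7 tested members changed, beside 44.5% of all tested gene IDs. Groups did not overlap for 4 of the 7, beside 53.1%. ANXA1 alone moved by at least 1 on the log2 scale, as 8.81% of gene IDs did. ANXA1 rose by 2.99 (SE 0.20, adjusted p = 9.56e-08) and ANXA2 by 0.32 (adjusted p = 0.00343), while ANXA5 fell by 0.86 (adjusted p = 4.83e-07) and ANXA6 fell by 0.49 (adjusted p = 0.00360, all with limma). ANXA4 and ANXA7 lay near the untreated level, with log2 changes of -0.08 (95% interval -0.32 to 0.16) and 0.03 (95% interval -0.14 to 0.20). Each had been called lower with siMITF and higher with IFNγ in siMITF cells. Those calls share the same siMITF libraries, so that low values there would give both and a recovery is not shown. For ANXA7 each of the calls was lost in 11 of 23 alternative settings. This comparison shares its siCTRL libraries with both single treatments.

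The summed TPM of the 10 genes ran from 2053 to 2451 over the libraries. Its mean was 2297 ± 135 TPM in siCTRL, 2203 ± 125 TPM in siCTRL + IFNγ, 2269 ± 60.1 TPM in siMITF and 2139 ± 84.8 TPM in siMITF + IFNγ (SD, n = 3), or 0.209% to 0.250% of a library. The difference of siMITF from siCTRL was -28.2 TPM, or -1.23% (two-sided exact permutation test of 3 against 3, p = 0.9). The difference with IFNγ was -93.9 TPM in siCTRL cells (exact p = 0.5) and -130 TPM in siMITF cells (exact p = 0.2), and that of the combination from untreated cells was -158 TPM (exact p = 0.2). The libraries overlapped in each of these comparisons. Between libraries with the same replicate number, the total was lower with IFNγ in 3 of 3 pairs of siCTRL cells (differences of -128, -105 and -48.2 TPM) and in 3 of 3 pairs of siMITF cells (differences of -56.1, -181 and -152 TPM), and lower with the combination in 3 of 3 pairs, while with siMITF alone it was lower in 1 of 3. The exact sign-flip permutation test over 3 pairs gave p = 0.25 for both IFNγ comparisons and the combination, the smallest value it allows, and p = 1 for siMITF. Relative to non-mitochondrial genes alone the total was lower with IFNγ in 3 of 3 pairs of siCTRL cells and in 2 of 3 pairs of siMITF cells. The plot of the annexin total by library shows how the loss of ANXA5 lay beside gains of ANXA2 and ANXA1.

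Relatives outside the 10 genes were low. ANXA9, an annexin that has lost calcium binding, ran from 2.14 to 4.27 TPM, and ANXA13, an intestinal annexin, from 0.296 to 0.799 TPM. ANXA9 passed as higher with siMITF in IFNγ-treated cells (log2 change 0.32 to 0.53 over 22 alternative settings, lost in 5). It also passed as higher with the combination (0.32 to 0.62, lost in 1 of 22). With siMITF alone or with IFNγ in either background ANXA9 did not pass. ANXA2R, which encodes a reported ANXA2 receptor, stood at 0.358, 0.610 and 0.547 TPM in siCTRL and 2.14, 1.75 and 2.14 TPM in siCTRL + IFNγ. In siMITF it stood at 0.841, 0.720 and 0.642 TPM and in siMITF + IFNγ at 1.92, 2.03 and 1.65 TPM. ANXA2R was thus higher in all IFNγ libraries than in all others, with log2 rises of 1.00 (adjusted p = 4.52e-05) in siCTRL and 0.72 (adjusted p = 0.000602, limma) in siMITF cells, but it reached the minimum of 2 TPM only through siCTRL + IFNγ, where it was high.

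Of the calcium-binding partners of annexins, most of them S100 proteins, 5 of 7 tested genes of a list of 8 passed with siMITF, all higher, beside 34.8% of all tested gene IDs that passed and 21.0% that were higher. The median log2 change was 0.99 beside 0.06 over all tested gene IDs. S100A10, the partner of ANXA2, stood at 121, 122 and 121 TPM in siCTRL and 237, 246 and 244 TPM in siMITF, without overlap, and rose by 0.99 (SE 0.06, adjusted p = 1.12e-07 with limma). S100A11, the partner of ANXA1, stood at 348, 366 and 336 TPM in siCTRL and 456, 460.2 and 443 TPM in siMITF, a rise of 0.37 (adjusted p = 0.00110, limma). These S100 genes also moved with IFNγ in siMITF cells: S100A10 reached 308, 274 and 273 TPM (rise of 0.23, adjusted p = 0.0186, a call lost in 6 of 23 alternative settings) and S100A11 reached 843, 742 and 709 TPM (rise of 0.75, adjusted p = 5.47e-06, limma). In the same comparison ANXA2 had a log2 change of -0.02 and ANXA1 fell by 0.87. S100A11 also rose by 0.72 with IFNγ in siCTRL cells (adjusted p = 9.75e-06, limma), where it stood at 575, 590.3 and 562 TPM.

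S100A4, a partner of ANXA2 linked with cell movement, rose most of this list with siMITF, from 3.92, 5.43 and 3.83 TPM to 26.9, 29.9 and 28.9 TPM (log2 change 2.47, adjusted p = 3.49e-08 with limma). S100A1 rose by 1.40 (adjusted p = 1.55e-08) and S100B, a serum marker of melanoma, by 1.02 (adjusted p = 2.22e-07, limma). With IFNγ in siCTRL cells 4 of the 7 passed, beside 12.9% of gene IDs: S100A11 and S100B were higher, S100A4 (lost in 5 of 23 settings) and S100A1 lower. With IFNγ in siMITF cells 3 passed, S100A10, S100A11 and S100B, all higher, and 5 with the replicate block, beside 20.2% of gene IDs. PDCD6 and SRI, penta-EF-hand proteins that bind ANXA11 and ANXA7, had changes of -0.02 and -0.20 with siMITF and did not pass, SRI having an adjusted p of 0.121, or 0.0192 with the block (limma). S100A6 was not tested and did not pass 0.567 TPM.

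The receptors of ANXA1 were nearly silent. FPR1 did not pass 0.377 TPM, FPR2 0.0524 TPM and FPR3 0.103 TPM, and PTGS1, PTGS2, PTGES and TSC22D3 were also under the minimum, which left 4 tested genes of a list of 11. PLA2G4A, the cytosolic phospholipase A2 that ANXA1 can hold back, was the 1 of these 4 that passed with siMITF (2 with the block), beside 34.8% of gene IDs, at 43.1, 43.5 and 40.4 TPM against 16.2, 20.5 and 17.8 TPM, a rise of 1.18 (SE 0.10, adjusted p = 2.36e-06 with limma). NR3C1, the glucocorticoid receptor, and FKBP5, one of its targets, had log2 changes of 0.27 (adjusted p = 0.250, or 0.0324 with the block) and -0.06 (adjusted p = 0.784, limma). TRPM7, a channel kinase that phosphorylates ANXA1, had a log2 change of 0.15 (adjusted p = 0.393, limma). None of the 4 passed with IFNγ in either background with limma, and none had an unadjusted p under 0.05.

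Of the genes for plasminogen activation at the cell surface, 4 of 7 tested passed with siMITF, all higher (PLAT, SERPINB2, SERPINE2 and PLAUR), beside 34.8% of all tested gene IDs that passed and 21.0% that were higher. PLAT, the tissue plasminogen activator that ANXA2 can dock, rose from 82.8, 90.5 and 83.0 TPM to 179.7, 182 and 181 TPM (log2 change 1.07, adjusted p = 1.35e-07 with limma). SERPINB2, an inhibitor of the urokinase activator, stood at 0.447, 0.525 and 0.497 TPM in siCTRL, 3.66, 4.52 and 2.78 TPM with IFNγ, 4.27, 4.51 and 3.92 TPM with siMITF and 20.2, 19.8 and 14.8 TPM with both. It rose by 1.81 with siMITF (adjusted p = 1.16e-06) and by 1.87 with IFNγ in siMITF cells (adjusted p = 1.2e-06, limma). SERPINE2, a protease inhibitor, rose by 0.49, and PLAUR, the urokinase receptor, by 0.38, a call lost without siCTRL replicate 3, siMITF replicate 1 or siMITF replicate 2 (adjusted p up to 0.0786, limma). PLAU, the urokinase gene, did not pass 0.215 TPM. The genes that rose were thus an activator, a receptor and inhibitors. SERPINB2 reached the minimum only in the conditions where it was high, so the filter favoured its place in the counts of this list. With IFNγ 1 of 7, SERPINB2, passed in siCTRL cells (3 with the block), beside 12.9% of gene IDs, and 2 in siMITF cells (5 with the block), beside 20.2%. The latter were SERPINB2 and PLAUR, which fell by 0.34 (adjusted p = 0.0404), a call lost in 10 of 22 alternative settings, among them the omission of any single siMITF or siMITF + IFNγ library (adjusted p up to 0.130, limma).

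Of the membrane repair genes, 7 of 13 tested genes of a list of 16 passed with siMITF, 5 higher and 2 lower, beside 34.8% of all tested gene IDs that passed, 21.0% higher and 13.8% lower. MYOF, a ferlin that patches membranes, rose from 0.683, 1.00 and 0.974 TPM to 5.29, 6.19 and 5.57 TPM (log2 change 1.83, adjusted p = 9.28e-06 with limma), and reached the minimum through the siMITF conditions alone. AHNAK, a giant protein that binds ANXA2 with S100A10, rose by 1.02 (adjusted p = 0.00643), EHD1, a membrane-shaping ATPase, by 0.85 (adjusted p = 0.00185), CAPNS1, the small calpain subunit, by 0.50 (adjusted p = 7.41e-05), and VPS4A, an ESCRT ATPase, by 0.22 (adjusted p = 0.0401, limma). The VPS4A call was lost in 8 of 23 alternative settings, among them the omission of any single siCTRL or siMITF library (adjusted p up to 0.117, limma). CAPN2, a calpain, fell by 0.51 and SMPD1, the acid sphingomyelinase of lysosomes, fell by 0.50 (adjusted p = 0.0102, limma). SMPD1 was the 1 gene of this list that passed with IFNγ in either background (4 genes with the replicate block in each), beside 12.9% of gene IDs in siCTRL and 20.2% in siMITF cells. It went from 36.5, 44.1 and 37.7 TPM to 124, 177 and 154 TPM in siCTRL cells, a rise of 1.90, and rose by 1.54 in siMITF cells. DYSF, CAVIN1 and TRIM72 were not tested.

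Phosphatidylserine, the lipid that ANXA5 binds, is moved across the membrane by scramblases and flippases, and 4 of 6 tested genes for this passed with siMITF, 1 higher and 3 lower, beside 34.8% of all tested gene IDs that passed, 21.0% higher and 13.8% lower. PLSCR1, a scramblase by name and an interferon-induced gene, stood at 103, 123 and 105 TPM in siCTRL and 429, 489.5 and 407 TPM with IFNγ. With siMITF it stood at 48.8, 52.0 and 49.1 TPM, and with both at 319, 287 and 263 TPM. PLSCR1 fell by 1.12 with siMITF (adjusted p = 1.81e-06), and it rose by 1.99 with IFNγ in siCTRL cells (adjusted p = 7.88e-09) and by 2.51 in siMITF cells (adjusted p = 6.41e-10, limma). The difference between these rises was 0.52 with an adjusted p of 0.143, or 0.0215 with the replicate block (limma). ATP11A, a flippase, fell by 0.80 and TMEM30A, the flippase subunit, by 0.41, whereas PLSCR3, another gene of the PLSCR family, rose by 0.60. ANO6 stood at 14.6, 17.9 and 16.6 TPM in siCTRL and 16.9, 20.2 and 16.7 TPM in siMITF. These groups overlapped, and ANO6 passed neither with siMITF nor with IFNγ. XKR8 did not pass 0.149 TPM and was not tested. With IFNγ 3 of the 6 passed in siCTRL cells, beside 12.9% of gene IDs, PLSCR1 and PLSCR4 higher and TMEM30A lower, the last lost in 6 of 23 settings. In siMITF cells 2 passed, PLSCR1 and PLSCR4, both higher, beside 20.2%. The plot of partner genes sets the change with siMITF beside the change with IFNγ for these lists.

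**Figure D3:**
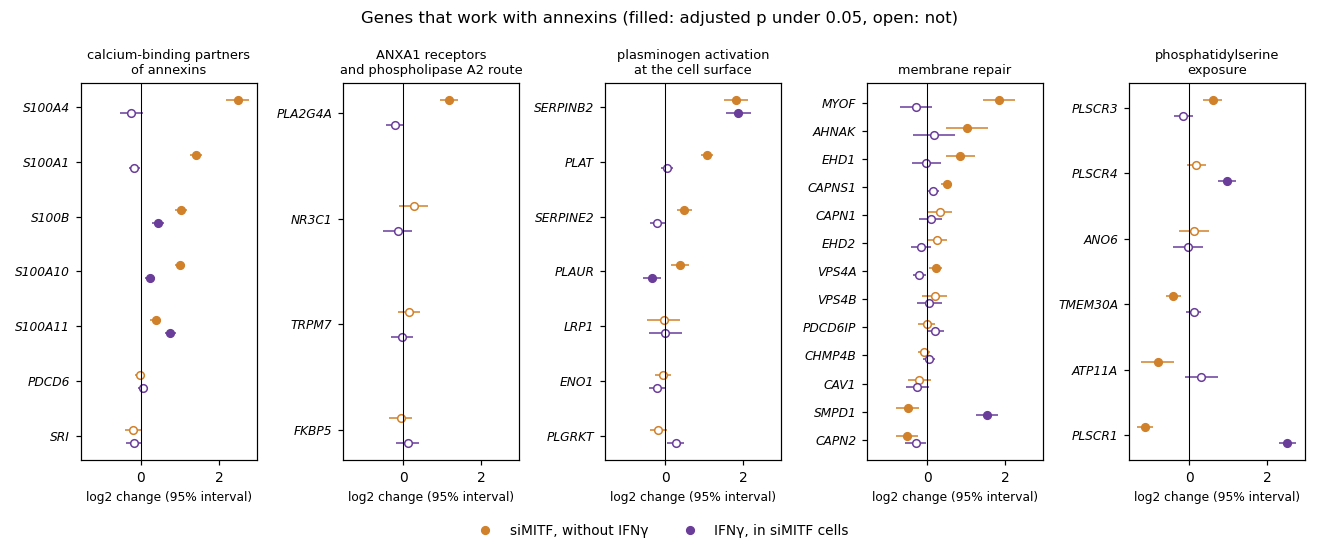
Log2 change of the tested genes of 5 lists, with the limma estimate as points and its 95% interval as bars, for siMITF without IFNγ (orange) and for IFNγ in siMITF cells (purple), filled where the adjusted p was under 0.05. The 5 S100 genes lie right of 0 for siMITF, from 0.37 to 2.47, and PLSCR1 lies at -1.12 for siMITF and 2.51 for IFNγ.

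Over the 12 libraries, the 5 tested genes whose centred log2(TPM + 1) profile lay nearest to that of ANXA1 were DKK1, LRRC55, RAB3B, CASS4 and IGFBP5. The root-mean-square difference from ANXA1 was 0.289 for DKK1 and 0.530 for IGFBP5 on the log2 scale, beside a median of 1.77 over all tested gene IDs. DKK1, a secreted Wnt inhibitor, stood at 0.986, 1.94 and 1.89 TPM in siCTRL, 1.82, 1.98 and 0.899 TPM in siCTRL + IFNγ, 32.0, 33.5 and 29.1 TPM in siMITF and 27.2, 27.9 and 23.8 TPM in siMITF + IFNγ. These genes were chosen for their likeness over the same libraries, so that their values are a description with no test, and 4 of the 5 (all but IGFBP5) reached the minimum of 2 TPM only through the siMITF conditions. With IFNγ the 5 differed among themselves. RAB3B, a small GTPase of secretory vesicles, stood at 9.70, 10.8 and 8.72 TPM in siMITF and 3.88, 5.10 and 4.96 TPM in siMITF + IFNγ, lower as ANXA1 was. CASS4, a scaffold protein of focal adhesions, stood at 9.73 ± 0.886 TPM in siMITF and 12.8 ± 1.09 TPM in siMITF + IFNγ (SD, n = 3), without overlap, higher where ANXA1 was lower. IGFBP5, an insulin-like growth factor binding protein, was lower with IFNγ in siMITF cells (58.2, 66.1 and 61.6 TPM against 32.6, 38.3 and 44.9 TPM) but also in siCTRL cells (7.01, 7.89 and 7.91 TPM against 1.91, 2.73 and 2.39 TPM). The choice of genes depended on the measure: with a pseudocount of 0.1 only RAB3B remained among the nearest 5, and with Pearson's correlation none did.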

How the data were processed

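RNA sequencing of 12 libraries, 3 in each of 4 conditions, was analysed. Reads were trimmed by the authors (Trimmomatic 0.39) and assigned by kallisto to Ensembl GRCh38 transcripts (the release is not given in the sources used here), and the authors deposited TPM per gene ID. TPM are shares of a library, so composition can move them and depth is unknown, and no counting interval or detection floor is given. Counts were tested by the authors with DESeq2 1.26.0, which were not used here.

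Symbols matched 35520 of 40173 gene IDs. log2(TPM + 1) of 12773 gene IDs with a condition mean of 2 TPM or more was fitted with limma 3.58.1 (R 4.3.3): 1 coefficient per condition, all 12 libraries, intensity trend, two-sided tests, Benjamini-Hochberg adjustment over all tested IDs. The fit was tested on simulated data. Lists are described by counts and medians, with no set test. Some items are not reported here, and counts leave them out. The members and lists were chosen with earlier results of these data known. Named genes were MITF, the 10 annexins, every gene of the partner and marker lists, and the 5 tested genes with the smallest root-mean-square difference from the centred ANXA1 profile.

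Titles number the replicates 1 to 3. Of 18 pairs of libraries with the same number in different conditions, all correlated over 0.1 after removal of condition means (0.102 to 0.625, median 0.28). The median was -0.20 for 36 pairs with different numbers. Removal of condition means pushes these values down where same-numbered pairs are positive, so they are not separate evidence. The numbers were taken to pair libraries, and the replicate block was run as an alternative. The other alternatives were pseudocounts of 0.1 and 0.5, no filter, a mean of 5 TPM over all libraries, quantile normalization, median centring, no intensity trend, only the compared conditions, TPM summed by symbol, near-identical copies summed, and each library left out. Gene positions are from GENCODE 44 (GRCh38) and promoter windows from RefSeq (GRCh38.p14). Summaries used pandas 2.3.3, scipy 1.17.1 and numpy 2.4.6 under Python 3.11.15, and plots matplotlib 3.10.9.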

Additional observations from a re-analysis of the deposited data

How the results depend on the processing

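The changes of ANXA1, ANXA2, ANXA4 and ANXA5 with siMITF, with and without IFNγ, and the fall of ANXA1 with IFNγ in siMITF cells kept their direction and passed the test in each of 23 settings. The count of annexins passing with IFNγ in siCTRL cells went from 1 to 0 without a filter or with only the compared conditions, and to 2 with quantile normalization, median centring or the replicate block. Leaving out 1 library gave 0 to 2 there, 1 to 3 with IFNγ in siMITF cells, 4 to 6 with siMITF, 5 to 6 with siMITF and IFNγ, 4 for the combination and 0 for the interaction. The replicate block changed no other annexin call than those given beside the results.

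Genes that passed over the whole table, 1652 with IFNγ in siCTRL cells, 2574 with IFNγ in siMITF cells and 121 for the interaction, numbered 3281, 4556 and 276 with the block, 2814, 3810 and 263 with median centring, and 2825, 3996 and 294 with quantile normalization. With IFNγ in siCTRL cells the split was 868 higher and 784 lower, but 1178 and 1647 with quantile normalization.

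Partner counts with siMITF moved for the ANXA1 receptor list from 1 to 2 without a filter or with the block. With IFNγ in siCTRL cells, the plasminogen list went from 1 to 3 with quantile normalization, 2 with median centring and 3 with the block, and membrane repair from 1 to 5, 2 and 4 in the same order. With IFNγ in siMITF cells, the calcium-binding partners went from 3 to 5 with the block and the ANXA1 receptor list from 0 to 1 without a filter. The plasminogen list went from 2 to 1 without a filter, with a mean of 5 TPM or with only the compared conditions, to 4 with quantile normalization and to 5 with the block, and membrane repair from 1 to 4, 3 and 4 with quantile normalization, median centring and the block. Leaving out 1 library gave 1 to 2 (plasminogen) and 1 to 2 (membrane repair) with IFNγ in siCTRL cells, and 1 to 2 for the plasminogen and the membrane repair lists in siMITF cells.

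Values near 0 changed sign in some settings without passing the test. With IFNγ in siCTRL cells ANXA2 and ANXA6 were 0.0071 and 0.021 with quantile normalization, and with IFNγ in siMITF cells ANXA2 was 0.018 with quantile normalization and 0.023 with median centring. With single libraries left out, the log2 change with IFNγ in siCTRL cells ran from -0.31 to 0.12 for ANXA1, from -0.081 to 0.051 for ANXA2 and from -0.092 to 0.076 for ANXA6, and that of ANXA2 with IFNγ in siMITF cells from -0.036 to 0.014. ANXA11 ran from -0.055 to 0.00038 with siMITF, from -0.22 to 0.035 with siMITF in IFNγ-treated cells, from -0.015 to 0.24 for the combination and from -0.20 to 0.055 for the interaction. The interaction ran from -0.067 to 0.066 for ANXA2, from -0.078 to 0.15 for ANXA4 and from -0.023 to 0.14 for ANXA7. The low end of -0.22 for ANXA11 passed the test.

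Rescaled to non-mitochondrial genes, the annexin total was 2674 (siCTRL), 2639 (siMITF), 2606 (siCTRL + IFNγ) and 2571 (siMITF + IFNγ). On that scale the siCTRL libraries with and without IFNγ did not overlap (exact permutation p = 0.1, the smallest possible). The test over same-numbered pairs, chosen after seeing the data, brought no difference of the total past the threshold, which its smallest p of 0.25 does not allow. Of the 5 genes nearest to ANXA1, 1 was shared with a pseudocount of 0.1 and 0 with Pearson's correlation. The cause of these shifts was not tested. Depth is unknown, so the level of ANXA3, ANXA8 and ANXA10 has no limit of detection.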
